A study of Mus musculus with 8 samples.

Results

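The transcripts described here are those of the epithelial sodium channel (ENaC) and of the aldosterone response that governs it: Scnn1a, Scnn1b and Scnn1g, which encode the α, β and γ subunits of the channel, and Prss8, Nedd4l, Sgk1, Nr3c2, Hsd11b2, Tsc22d3 and Fxyd4. They were chosen by gene name, and their 10 rows were taken from a table of 30587 genes. All 10 were among the 18048 genes with enough reads to be tested. The kidneys came from 28-day-old mice. Tsc1-KO libraries (Tsc1-KO 5 to 8, n = 4) were from Tsc1f/f/Aqp2 Cre mice, in which the Aqp2 promoter drives Cre in the principal cells of the collecting duct and floxed Tsc1 is deleted there. WT libraries (WT 1 to 4, n = 4) were from C57BL/6 mice. The strain background of the Tsc1-KO mice is not named in the sources used here. A difference of background between the groups therefore cannot be told apart from the deletion of Tsc1. RNA was taken from the kidney as a whole, so that fewer cells of a type and less RNA per cell cannot be told apart.

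Principal cells reabsorb sodium through ENaC in their apical membrane and through the Na,K-ATPase in their basolateral membrane. Aldosterone binds the mineralocorticoid receptor, which raises transcription of Sgk1 and Scnn1a, and the SGK1 kinase restrains NEDD4-2, the ubiquitin ligase that removes ENaC from the membrane. Proteases such as prostasin activate the channel by cleavage, and 11β-hydroxysteroid dehydrogenase 2 inactivates glucocorticoids so that aldosterone can reach its receptor.

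The hormone-bound receptors of this family recognise a palindromic element, AGAACA, then 3 bases of any kind, then TGTTCT. The 300 bases around annotated transcript starts (250 before and 50 after, RefSeq sequence on GRCm38.p6) were searched for it on both strands. Of 32851 such windows, 3 (0.00913%) held the exact element, and 19.0% held at least 1 arm of the element (TGTTCT or its reverse complement AGAACA). Windows were at hand for 6 of the 10 genes, 13 windows in all. The exact element occurred in 1 of them, the window of an Sgk1 start on chromosome 10, at chr10:21993701-21993715, and it ended 174 bases before that start. An arm was present in 4 windows, 3 of Sgk1 and 1 of Tsc22d3. Sgk1 and Tsc22d3 had several windows each and most of the 13, while each other gene had 1. The genes were thus not searched over equal lengths. The Scnn1g, Scnn1b, Fxyd4 and Nr3c2 windows held neither, which says only that these letters are not in these windows. The 250 bases before 4 of these starts are given, for the pair of corticosteroid-induced genes that varied together between libraries and for the genes with a window that passed the test of genotype. Capitals mark the exact element and single arms, and for Sgk1 and Tsc22d3 a start with such a match is shown. The Sgk1 bases are chr10:21993640-21993889 on the plus strand, those of Tsc22d3 chrX:140600523-140600772 on the minus strand, those of Scnn1g chr7:121734229-121734478 on the plus strand, and those of Fxyd4 chr6:117937336-117937585 on the minus strand.
Sgk1: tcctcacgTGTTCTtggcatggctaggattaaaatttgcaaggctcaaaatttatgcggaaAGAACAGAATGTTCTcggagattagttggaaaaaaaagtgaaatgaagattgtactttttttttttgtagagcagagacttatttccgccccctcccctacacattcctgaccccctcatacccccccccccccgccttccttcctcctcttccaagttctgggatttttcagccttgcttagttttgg
Tsc22d3: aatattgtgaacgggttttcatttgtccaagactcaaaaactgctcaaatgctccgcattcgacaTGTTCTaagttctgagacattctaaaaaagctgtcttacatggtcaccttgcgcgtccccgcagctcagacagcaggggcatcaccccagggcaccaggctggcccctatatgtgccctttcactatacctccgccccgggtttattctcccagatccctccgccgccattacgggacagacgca
Scnn1g: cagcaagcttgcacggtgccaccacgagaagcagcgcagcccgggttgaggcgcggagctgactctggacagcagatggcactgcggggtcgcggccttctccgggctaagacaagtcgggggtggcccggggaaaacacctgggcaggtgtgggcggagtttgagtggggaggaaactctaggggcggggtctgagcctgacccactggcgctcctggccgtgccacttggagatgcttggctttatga
Fxyd4: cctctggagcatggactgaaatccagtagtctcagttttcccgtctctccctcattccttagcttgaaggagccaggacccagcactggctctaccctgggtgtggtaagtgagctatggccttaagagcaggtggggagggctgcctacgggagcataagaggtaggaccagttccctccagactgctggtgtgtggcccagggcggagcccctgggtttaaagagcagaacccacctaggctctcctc

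The libraries held 26453073 to 31226739 counts. The 10 genes were covered by 411 (Nr3c2 in WT 1) to 15731 reads (Prss8 in WT 1). Levels are given as counts per 1000000 (CPM) after TMM scaling, and the test was the edgeR quasi-likelihood test with Benjamini-Hochberg adjustment over all 18048 genes. Tsc1 itself, counted over the whole gene, had 65.9, 34.0, 51.4 and 47.6 CPM in Tsc1-KO 5, 6, 7 and 8, against 42.8, 55.3, 54.4 and 53.3 CPM in WT 1, 2, 3 and 4 (edgeR adjusted p = 0.933), so whole-kidney counts give no check of the genotype labels. Tsc1-KO 7, Tsc1-KO 8, WT 3 and WT 4 carried 3945 to 6001 reads of Y-linked genes, against at most 8 in the other libraries. The labels give no sex, and changes were therefore also fitted with a term for Y-linked reads. The principal cell genes Aqp2, Aqp3 and Aqp4 were detected in every library, with log2 changes of 0.11, -0.30 and -0.39 that did not pass the test. Of 5 tested principal cell markers 1 was called, Gata3, a transcription factor of the collecting duct, which was higher in Tsc1-KO (log2 change 0.73, edgeR adjusted p = 0.0158). The summed level of the 6 principal cell markers on the list, Avpr2 included, was 618 to 746 CPM in Tsc1-KO and 492 to 833 CPM in WT. Of 7 intercalated cell markers, 5 were higher in Tsc1-KO, among them Foxi1 (log2 change 1.93) and Atp6v0d2 (2.35), and their summed level was 663 to 1190 CPM in Tsc1-KO and 396 to 555 CPM in WT. Of 5 proximal tubule markers, 3 were lower in Tsc1-KO, with a summed level of 7009 to 10007 CPM in Tsc1-KO and 11975 to 13043 CPM in WT. These counts are of markers called by the edgeR test, in which 3.5% of all tested genes were called higher and 1.16% lower. Tsc1-KO 7 lay nearer to WT 4 and WT 3 than to its own group. The chi-square per degree of freedom between its counts and those of another library was 25.8 for WT 4 and 51.0 for WT 3, against 64.0 to 81.3 for the other Tsc1-KO libraries. Its Foxi1 and Atp6v0d2 levels, 93.7 and 105 CPM, were the lowest of the Tsc1-KO group. WT 3 and WT 4 carried Y-linked reads as it did, and so did Tsc1-KO 8, at 73.0. Distances as large as those within Tsc1-KO also occurred within WT, where WT 1 and WT 3 stood at 74.4. Tsc1-KO 5 was nearer to WT 2 (47.6) than to Tsc1-KO 6 (54.2), but its nearest library was Tsc1-KO 8 (34.5). The nearest library of Tsc1-KO 6 was also Tsc1-KO 8 (42.4). By this measure Tsc1-KO 7 was the only Tsc1-KO library whose nearest library was a WT library. The part of these differences in the results was not tested.

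In Tsc1-KO kidneys the channel and its partners did not move one way. Scnn1g was higher, while Prss8, which encodes prostasin, and Fxyd4, which encodes a regulator of the Na,K-ATPase, were lower. The levels of Scnn1a and Scnn1b had changes of a size close to that of Scnn1g but did not pass the test. The receptor Nr3c2, the enzyme Hsd11b2, the ligase Nedd4l and the hormone-induced genes Sgk1 and Tsc22d3 did not pass it. Of the whole set, 1 of the 10 genes was called higher and 2 were called lower at an adjusted p under 0.05 in edgeR, where 3.5% of all tested genes were called higher and 1.16% lower. The genotypes did not overlap for 4 of the 10 genes, against 11.5% of all tested genes. The median log2 change of the 10 genes was 0.23, and that of all tested genes was 0.0049. With the term for Y-linked reads, 3 of the 10 were called higher (4.32% of all genes) and 2 lower (1.76% of all genes).

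**Figure D1:**
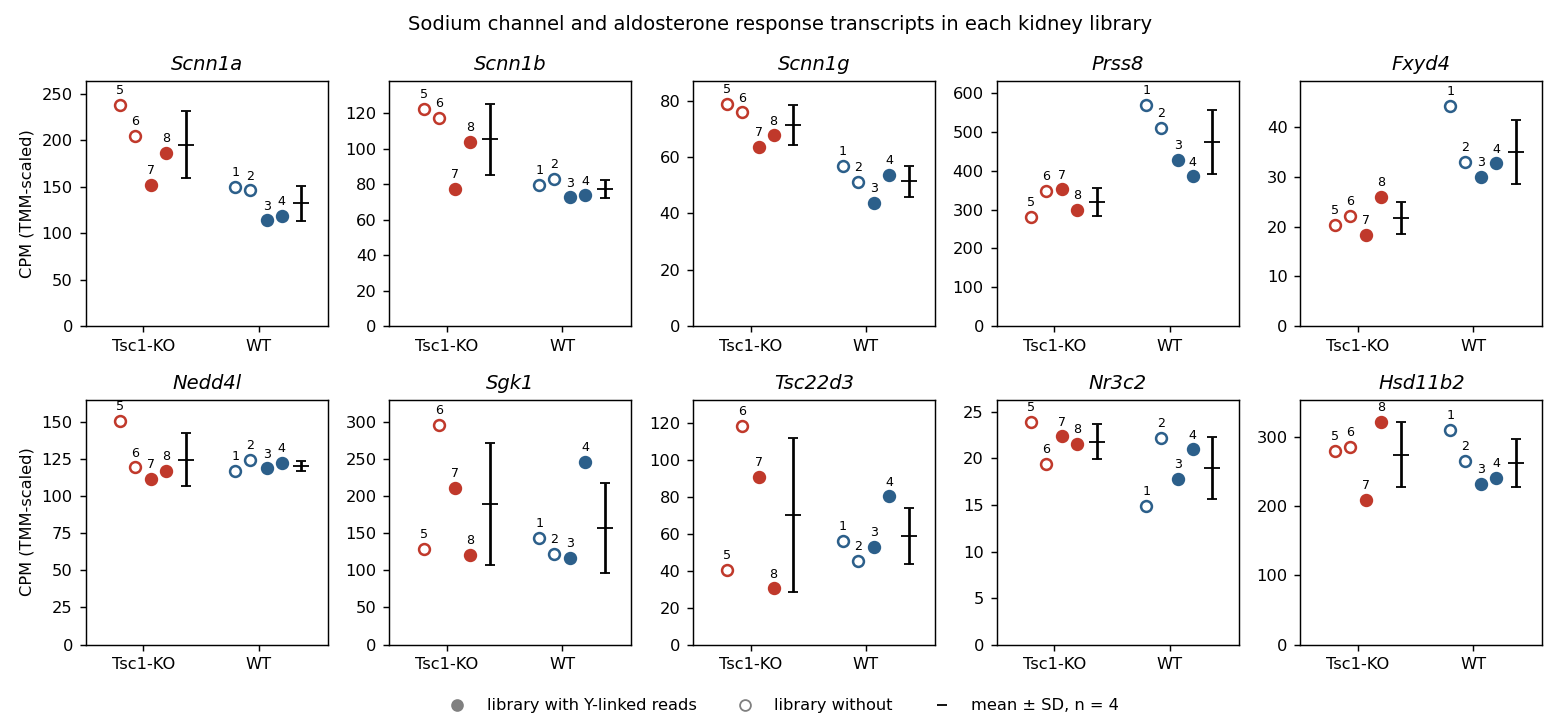
CPM of each of the 10 genes in every library, with Tsc1-KO on the left and WT on the right of each panel. Points are libraries, numbered as in the labels and filled where Y-linked reads were present, and the bars show mean ± SD over 4 libraries. For Scnn1a, Scnn1g, Prss8 and Fxyd4 the 2 genotypes do not overlap.

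Scnn1a encodes the α subunit, without which the channel does not reach the membrane in useful amounts. It lies on chromosome 6 (ENSMUSG00000030340, 125320659 to 125344943, plus strand, positions as in GRCm38). Its level was 238, 205, 152 and 186 CPM in Tsc1-KO 5, 6, 7 and 8, against 150, 146, 114 and 119 CPM in WT 1, 2, 3 and 4. All Tsc1-KO libraries lay above all WT libraries, though Tsc1-KO 7 exceeded WT 1 by little. The log2 change was 0.56 (SE 0.15, 95% interval 0.23 to 0.90), which is 1.48-fold, and the edgeR adjusted p of 0.0605 did not pass the threshold. With the term for Y-linked reads the log2 change was again 0.56, with an SE of 0.10 and an edgeR adjusted p of 0.00895. On the FPKM scale the genotypes overlapped, since Tsc1-KO 7 had 36.2 FPKM and WT 1 had 36.6 FPKM.

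The β and γ subunits are encoded by neighbouring genes on chromosome 7, both on the plus strand and 96.6 kb apart. Scnn1b (ENSMUSG00000030873, 121865038 to 121918514) had 122, 117, 77.5 and 104 CPM in Tsc1-KO 5, 6, 7 and 8, against 79.5, 83.2, 72.5 and 73.6 CPM in WT 1, 2, 3 and 4. Tsc1-KO 7 lay within the WT range and the other Tsc1-KO libraries lay above it. The log2 change of 0.45 (SE 0.14, 95% interval 0.14 to 0.75) had an edgeR adjusted p of 0.105, and 0.0479 with the term for Y-linked reads.

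Scnn1g (ENSMUSG00000000216, 121734479 to 121768475) had 78.7, 75.8, 63.4 and 67.6 CPM in Tsc1-KO 5, 6, 7 and 8, against 56.7, 51.2, 43.7 and 53.6 CPM in WT 1, 2, 3 and 4. No WT library reached the lowest Tsc1-KO library. The log2 change was 0.48 (SE 0.11, edgeR adjusted p = 0.0391), which is 1.39-fold, and the edgeR adjusted p was 0.0213 with the term for Y-linked reads. The call depended on the libraries used. When 1 library was left out at a time, Scnn1g was called in 1 of 8 fits, the one without Tsc1-KO 7, with log2 changes of 0.39 (without WT 3) to 0.53 (without Tsc1-KO 7) and edgeR adjusted p of 0.025 to 0.142. Scnn1a and Scnn1b were likewise called only in the fit without Tsc1-KO 7, with log2 changes of 0.67 and 0.57 and edgeR adjusted p of 0.0155 and 0.0105.

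The proportions of the subunits were compared within each library, which removes scaling. The count ratio of Scnn1g to Scnn1a was 0.330 to 0.417 in Tsc1-KO and 0.351 to 0.452 in WT, a log2 difference of -0.08 (two-sided exact permutation p = 0.486, n = 4 each). The ratio of Scnn1g to Scnn1b was 0.643 to 0.818 in Tsc1-KO and 0.602 to 0.728 in WT, a log2 difference of 0.05 (exact permutation p = 0.686). The ratio of Scnn1b to Scnn1a was 0.510 to 0.572 in Tsc1-KO and 0.531 to 0.638 in WT, a log2 difference of -0.13 (exact permutation p = 0.143, adjusted over 3 ratios 0.429). The genotypes overlapped in all 3 ratios. With 4 libraries against 4 the smallest exact permutation p is 0.0286. Per length, as FPKM (fragments scaled by gene length and library total), Scnn1a was at 46.7 ± 8.51, Scnn1b at 39.5 ± 7.55 and Scnn1g at 23.6 ± 2.35 in Tsc1-KO, and at 32.0 ± 4.58, 29.4 ± 1.93 and 17.2 ± 1.92 in WT (SD, n = 4 each). Scnn1g was thus the lowest of the 3 subunits in both genotypes. Within libraries, the FPKM ratio of Scnn1b to Scnn1a was 0.801 to 0.898 in Tsc1-KO and 0.833 to 1.0006 in WT. Scnn1b was thus below Scnn1a per length in every library except WT 3.

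Prss8 encodes prostasin, a membrane-anchored serine protease of the ENaC activation cascade. It lies on chromosome 7 (ENSMUSG00000030800, 127925716 to 127930104, minus strand), and 6.59% of its exon bases are shared with Kat8 on the opposite strand. Its level was 280, 349, 352 and 299 CPM in Tsc1-KO 5, 6, 7 and 8, against 570, 511, 428 and 385 CPM in WT 1, 2, 3 and 4. All WT libraries lay above all Tsc1-KO libraries, and within WT the libraries without Y-linked reads were the higher pair. The log2 change was -0.57 (SE 0.14, 95% interval -0.88 to -0.25, edgeR adjusted p = 0.0474), and the edgeR adjusted p was 0.0335 with the term for Y-linked reads. Leaving out 1 library at a time gave log2 changes of -0.67 (without WT 4) to -0.47 (without WT 1), whose sign followed from the lack of overlap. The call was made in 2 of 8 fits, those without Tsc1-KO 7 and without WT 4 (edgeR adjusted p of 0.0355 to 0.136 over the 8). Prss8 was the most abundant of the 10 transcripts per length, with 171 ± 19.9 FPKM in Tsc1-KO and 256 ± 45.7 FPKM in WT (SD, n = 4 each). The proximal tubule markers named above, whose summed level was lower in every Tsc1-KO library than in any WT library, moved in the same direction, and their part in this result was not tested.

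Fxyd4 encodes corticosteroid hormone-induced factor, a small membrane protein of the collecting duct that raises the sodium affinity of the Na,K-ATPase. It lies on chromosome 6 (ENSMUSG00000004988, 117933559 to 117937692, minus strand). Its level was 20.3, 22.1, 18.3 and 25.9 CPM in Tsc1-KO 5, 6, 7 and 8, against 44.3, 33.1, 29.9 and 32.7 CPM in WT 1, 2, 3 and 4. The highest Tsc1-KO library, Tsc1-KO 8, stayed below the lowest WT library, WT 3. The log2 change was -0.69 (SE 0.15, 95% interval -1.03 to -0.36, edgeR adjusted p = 0.0249), the smallest adjusted p of the 10 genes, and the edgeR adjusted p was 0.0213 with the term for Y-linked reads. Leaving out 1 library gave log2 changes of -0.79 (without Tsc1-KO 8) to -0.57 (without WT 1). The edgeR adjusted p ranged from 0.0263 to 0.0704 over these 8 fits, and the call was made in 4 of them, without Tsc1-KO 7, Tsc1-KO 8, WT 3 or WT 4.

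**Figure D2:**
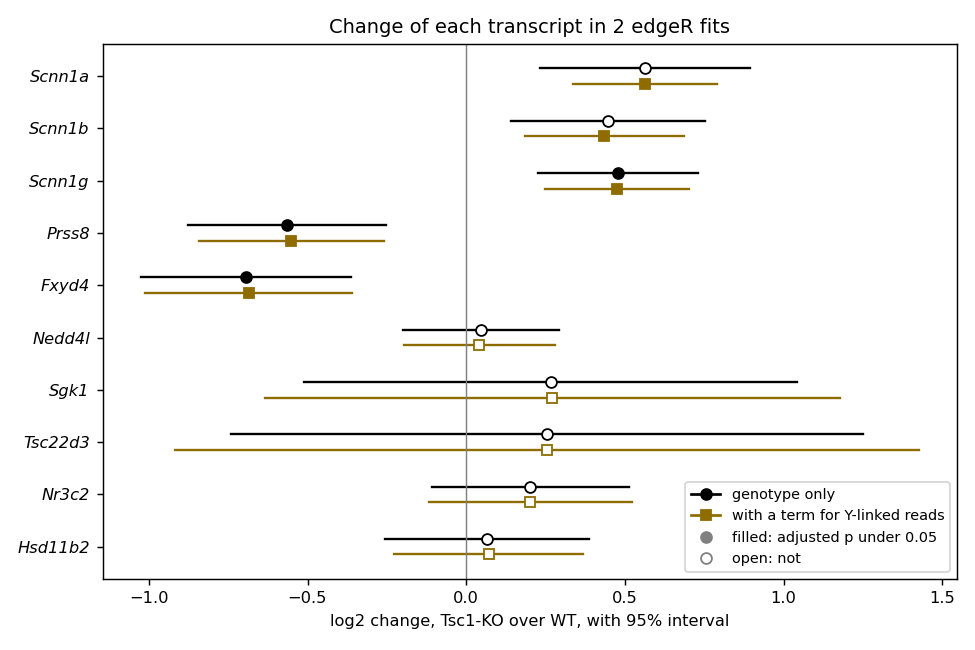
Log2 change of each gene, Tsc1-KO over WT, with its 95% interval, from the edgeR fit on genotype alone (circles) and with a term for Y-linked reads (squares). Filled symbols had an adjusted p under 0.05: Scnn1g, Prss8 and Fxyd4 in the first fit, joined by Scnn1a and Scnn1b in the second, while the point estimates hardly move.

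Nedd4l encodes NEDD4-2, the ubiquitin ligase that marks ENaC for removal, and is located on chromosome 18. Its level was 151, 120, 112 and 117 CPM in Tsc1-KO 5, 6, 7 and 8, against 117, 125, 119 and 123 CPM in WT 1, 2, 3 and 4. Only Tsc1-KO 5 stood above the WT range. A log2 change of 0.05 was fitted for Nedd4l (95% interval -0.20 to 0.29, edgeR adjusted p = 0.888).

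Sgk1 encodes the aldosterone-induced kinase that phosphorylates NEDD4-2 and is located on chromosome 10 (ENSMUSG00000019970, 21882184 to 21999903, plus strand). Its level was 129, 296, 211 and 121 CPM in Tsc1-KO 5, 6, 7 and 8, against 144, 123, 117 and 246 CPM in WT 1, 2, 3 and 4. Tsc1-KO 6, Tsc1-KO 7 and WT 4 were high and the other 5 libraries lay close together, across both genotypes. Its log2 change was 0.27, with a wide 95% interval of -0.51 to 1.04 (edgeR adjusted p = 0.77).

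Tsc22d3 encodes GILZ, a leucine zipper protein induced by corticosteroids, and is located on chromosome X (ENSMUSG00000031431, 140539528 to 140600659, minus strand). Its level was 40.4, 118, 90.6 and 30.4 CPM in Tsc1-KO 5, 6, 7 and 8, against 55.9, 45.3, 53.0 and 80.2 CPM in WT 1, 2, 3 and 4. The same libraries, Tsc1-KO 6, Tsc1-KO 7 and WT 4, were the 3 highest, and the Tsc1-KO libraries stood in the same order as for Sgk1. Its log2 change was 0.25 (95% interval -0.74 to 1.25, edgeR adjusted p = 0.836).

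These genes differed from the other 8 in how far libraries of 1 genotype lay apart. The SD of log2 CPM within a genotype was 0.56 for Sgk1 and 0.70 for Tsc22d3, larger than in 96.9% and 98.2% of the 10322 tested genes with a mean of at least 10 CPM. It was 0.14 to 0.24 for the other 8 genes, and its median over those 10322 genes was 0.19. Within Tsc1-KO the highest library exceeded the lowest 2.46-fold for Sgk1 and 3.89-fold for Tsc22d3.

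The same libraries were compared for 10 other corticosteroid-responsive genes. Per1, a clock gene that is also induced by glucocorticoids and aldosterone, had 62.2, 135, 99.9 and 24.6 CPM in Tsc1-KO 5, 6, 7 and 8, against 90.9, 67.8, 109 and 113 CPM in WT 1, 2, 3 and 4. Fkbp5, which encodes a co-chaperone of the glucocorticoid receptor, had 27.6, 65.5, 57.5 and 32.3 CPM in Tsc1-KO 5, 6, 7 and 8, against 41.9, 29.0, 80.7 and 64.6 CPM in WT 1, 2, 3 and 4. Tsc1-KO 6 and Tsc1-KO 7 were again the highest Tsc1-KO libraries for both, and in WT the highest library was WT 4 for Per1 and WT 3 for Fkbp5. Counted against the mean of their own genotype, 6, 9, 6 and 1 of the 10 genes were above it in Tsc1-KO 5, 6, 7 and 8, and 5, 3, 5 and 9 of 10 in WT 1, 2, 3 and 4. Tsc1-KO 7 was thus not set apart from Tsc1-KO 5 by this list as a whole. None of the 10 was called in the edgeR comparison of genotypes, where 3.5% of all tested genes were called higher and 1.16% lower. The smallest edgeR adjusted p were those of Ndrg2, whose log2 change was 0.54 (adjusted p = 0.083), Dusp1 with 0.57 (adjusted p = 0.154) and Edn1 with 0.93 (adjusted p = 0.258). With the term for Y-linked reads, Ndrg2 was the 1 of the 10 called higher (edgeR adjusted p = 0.0116), against 4.32% of all tested genes.

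**Figure D3:**
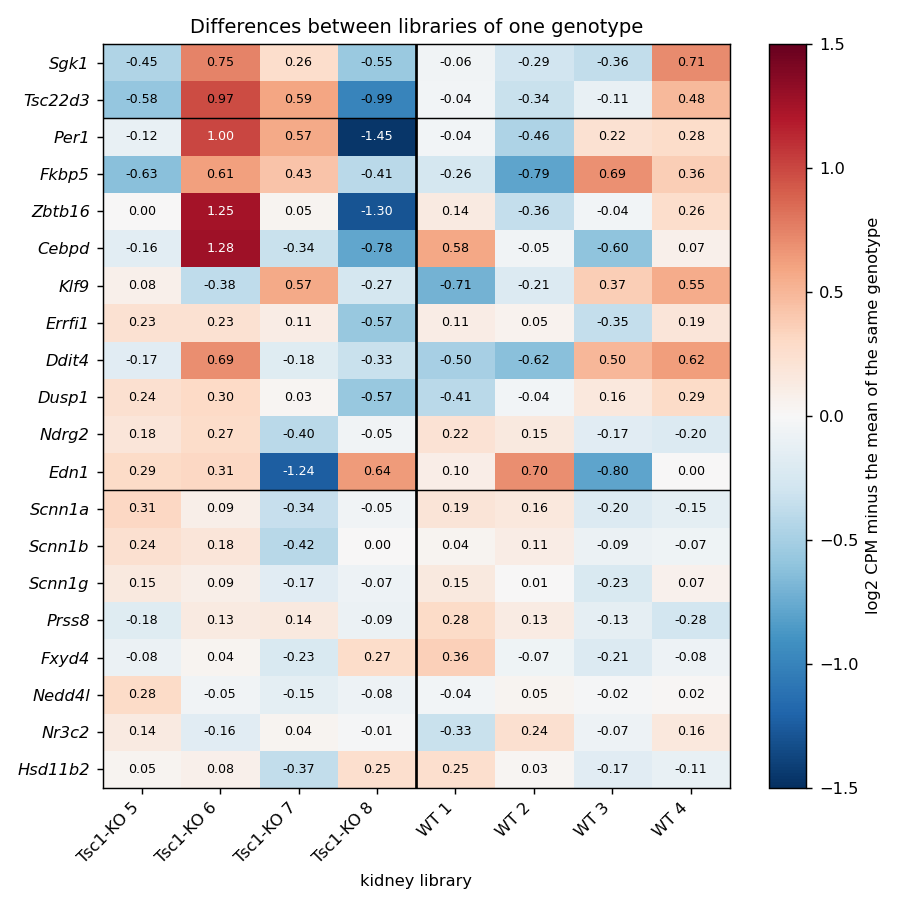
Log2 CPM of each gene in each library minus the mean of that gene in its own genotype, with Tsc1-KO libraries on the left and WT libraries on the right. The 2 top rows are Sgk1 and Tsc22d3, the middle rows 10 other corticosteroid-responsive genes and the bottom rows the other 8 genes of the report. Red is above and blue below the genotype mean: Tsc1-KO 6 (Sgk1 0.75, Tsc22d3 0.97) and WT 4 (0.71 and 0.48) are above it, and Tsc1-KO 8 (-0.55 and -0.99) is below it.

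Nr3c2 encodes the mineralocorticoid receptor and is located on chromosome 8 (ENSMUSG00000031618, 76899442 to 77245012, plus strand). Its level was 23.9, 19.4, 22.4 and 21.6 CPM in Tsc1-KO 5, 6, 7 and 8, against 14.9, 22.2, 17.8 and 20.98 CPM in WT 1, 2, 3 and 4. The genotypes overlapped, and WT 1 was the lowest library. A log2 change of 0.20 was fitted (95% interval -0.11 to 0.51, edgeR adjusted p = 0.523). Per length it was the lowest of the 10 transcripts, at 3.33 ± 0.261 FPKM in Tsc1-KO and 2.93 ± 0.498 FPKM in WT (SD, n = 4 each).

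Hsd11b2 encodes 11β-hydroxysteroid dehydrogenase 2 and is located on chromosome 8 (ENSMUSG00000031891, 105518755 to 105523988, plus strand). Its level was 280, 286, 209 and 322 CPM in Tsc1-KO 5, 6, 7 and 8, against 310, 266, 232 and 241 CPM in WT 1, 2, 3 and 4. Tsc1-KO 8 was the highest library and Tsc1-KO 7 the lowest, so that Tsc1-KO spanned the whole WT range. A log2 change of 0.06 was fitted (95% interval -0.26 to 0.39, edgeR adjusted p = 0.882). Its FPKM of 147 ± 25.7 in Tsc1-KO and 143 ± 19.7 in WT (SD, n = 4 each) was the second highest of the 10 in both genotypes, after Prss8. Neither Nr3c1, the glucocorticoid receptor (log2 change 0.02, edgeR adjusted p = 0.978), nor Hsd11b1, which regenerates glucocorticoid (log2 change 0.10, edgeR adjusted p = 0.926), passed the test.

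Whether the change depended on the kind of library was tested as the interaction of genotype and Y-linked reads. No gene was called by edgeR (0% of all tested genes, 356 genes at an unadjusted p under 0.05), and none of the 10 had an unadjusted p under 0.05. In the 4 libraries that carried Y-linked reads, 2 of each genotype, log2 changes were 0.54 for Scnn1a, 0.31 for Scnn1b, 0.43 for Scnn1g, -0.32 for Prss8 and -0.50 for Fxyd4. In the 4 libraries without such reads the changes were 0.56 for Scnn1a, 0.54 for Scnn1b, 0.50 for Scnn1g, -0.80 for Prss8 and -0.89 for Fxyd4. The directions of these 5 genes were the same in both kinds of library. For Scnn1a, Scnn1g, Prss8 and Fxyd4 this followed from the lack of overlap between genotypes, and it is no separate support. No member was called within either kind, where edgeR adjusted p for the 5 was 0.0766 to 0.606.

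A further 48 genes around the channel, on 5 lists by role, were tested, and 2 were called higher and 1 lower, with a median log2 change of -0.0036. Over all tested genes 3.5% were called higher and 1.16% lower. The counts are near these shares and are no result about the lists as such, and the same shares apply to each list below. On the list of 16 genes for ENaC proteolysis and trafficking, 1 was called higher and none lower. This was Tmprss4, which encodes a transmembrane serine protease that activates ENaC in cell systems. It had 14.2, 15.7, 6.88 and 14.8 CPM in Tsc1-KO 5, 6, 7 and 8, against 4.35, 4.22, 1.15 and 2.76 CPM in WT 1, 2, 3 and 4, without overlap (log2 change 2.05, SE 0.39, edgeR adjusted p = 0.0161). Of its exon bases 15.9% are shared with Gm17099 on the opposite strand, and the strand setting of the counting is not given in the sources used here. St14, which encodes matriptase, a protease of the same cascade, had a log2 change of 0.70 with an edgeR adjusted p of 0.0527, and 0.0107 with the term for Y-linked reads. Furin, which encodes the proprotein convertase that cleaves the α and γ subunits, had a log2 change of -0.36 (edgeR adjusted p = 0.138).

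Of 11 genes of the sodium pump, its FXYD regulators and potassium channels, 1 was called lower and none higher. Kcnj16, which encodes the Kir5.1 subunit of basolateral potassium channels, had 453, 486, 503 and 520 CPM in Tsc1-KO 5, 6, 7 and 8, against 864, 919, 915 and 944 CPM in WT 1, 2, 3 and 4 (log2 change -0.89, SE 0.10, edgeR adjusted p = 0.000533). Its libraries lay close together within each genotype and far apart between them. Of 4 distal convoluted tubule markers 1 was called, Pvalb, which encodes parvalbumin and was lower in Tsc1-KO (log2 change -2.06, edgeR adjusted p = 0.0037), and the summed level of the 4 was 1269 to 2302 CPM in Tsc1-KO and 1725 to 2236 CPM in WT. The summed level of the proximal tubule markers was 7009 to 10007 CPM in Tsc1-KO and 11975 to 13043 CPM in WT, lower without overlap. The part of either marker list in the result for Kcnj16 was not tested. Kcnj10, which encodes the Kir4.1 partner of Kir5.1, had a log2 change of 0.06 (edgeR adjusted p = 0.846). Kcnj1, the secretory potassium channel ROMK, had a log2 change of 0.01 (edgeR adjusted p = 0.976). The pump subunit gene Atp1b1 had a log2 change of -0.16 (edgeR adjusted p = 0.569), and the FXYD family members Fxyd5 and Fxyd6 had 0.53 and 0.61 (edgeR adjusted p of 0.195 and 0.313).

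Of 9 genes of sodium transport upstream of the collecting duct, 1 was called higher and none lower. Stk39, which encodes SPAK, the kinase that phosphorylates the sodium chloride cotransporter, had 70.6, 74.1, 53.9 and 74.5 CPM in Tsc1-KO 5, 6, 7 and 8, against 48.6, 49.5, 36.1 and 42.4 CPM in WT 1, 2, 3 and 4 (log2 change 0.63, SE 0.14, edgeR adjusted p = 0.0263). Every Tsc1-KO library was above every WT library. Its substrate transporter Slc12a3 had a log2 change of -0.20 (edgeR adjusted p = 0.613) and Slc12a1, the cotransporter of the thick ascending limb, had -0.09 (edgeR adjusted p = 0.863). The bicarbonate cotransporter Slc4a4 and the sodium-proton exchanger Slc9a3 of the proximal tubule had log2 changes of -0.37 and -0.42 (edgeR adjusted p of 0.346 and 0.374).

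**Figure D4:**
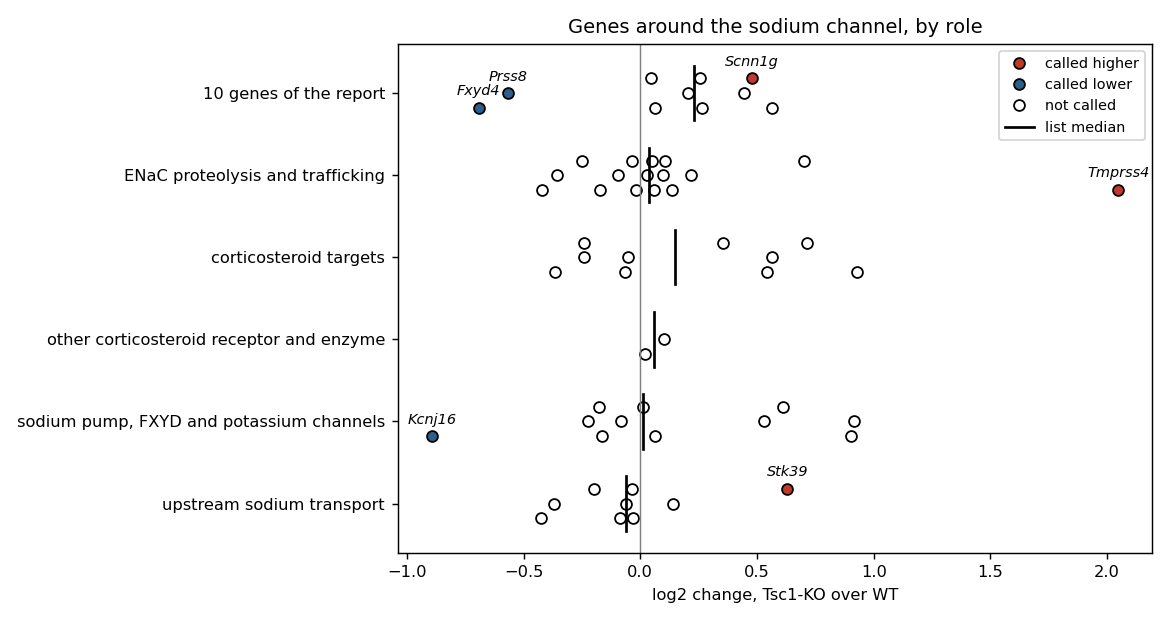
Log2 change, Tsc1-KO over WT, of the 10 genes of the report and of 48 genes on 5 lists by role. Each point is a gene, filled red where called higher and blue where called lower in edgeR, and vertical bars are list medians. Most points lie near 0, with Tmprss4 (2.05), Stk39 (0.63) and Kcnj16 (-0.89) called outside the 10 genes.

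The levels of the 10 transcripts were also set against the water channel and vasopressin receptor genes Aqp2, Aqp3, Aqp4 and Avpr2 of the same libraries, without a measurement of which cells the transcripts came from. Relative to the mean log2 CPM of these genes, Fxyd4 was lower in Tsc1-KO by a log2 difference of -0.86, and it was the 1 of the 10 without overlap between genotypes, against 6.84% of all tested genes under this reference. The differences were 0.38 for Scnn1a, 0.25 for Scnn1b, 0.30 for Scnn1g and -0.73 for Prss8, each with overlap. Avpr2 was covered by only 7 to 18 reads in Tsc1-KO and 2 to 7 reads in WT, and 81.3% of its exon bases are shared with Arhgap4 on the opposite strand, yet it set the sign of the reference, which differed between genotypes by 0.17 with it and by -0.15 without it. Without Avpr2, a choice made after these counts were seen, the differences were 0.71 for Scnn1a, 0.58 for Scnn1b, 0.63 for Scnn1g, -0.41 for Prss8 and -0.54 for Fxyd4, and Scnn1a and Scnn1g were the 2 without overlap, against 6.13% of all tested genes. Against Aqp2 alone, Scnn1a at 0.41, Prss8 at -0.70 and Fxyd4 at -0.83 had no overlap, against 5.61% of all tested genes, and Aqp2 itself differed by 0.14. The directions of these 5 genes were the same under all 3 references. The references, which all include Aqp2, differed between genotypes by less than any of these 5 genes did. The shared direction followed from that and is no separate support.

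**Figure D5:**
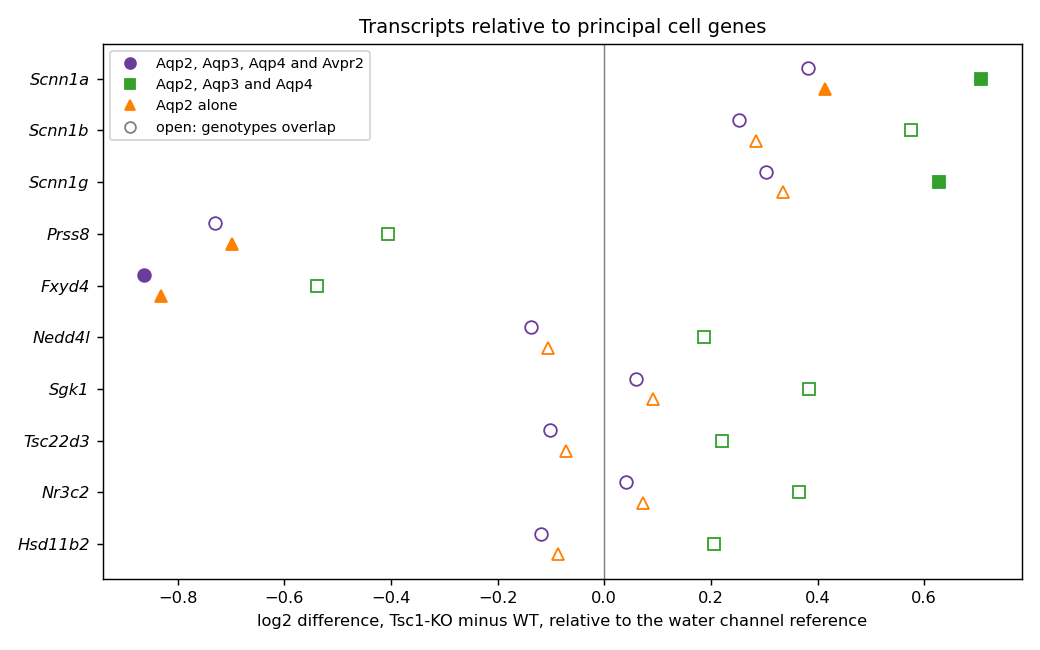
Log2 difference of each gene, Tsc1-KO minus WT, relative to the mean log2 CPM of Aqp2, Aqp3, Aqp4 and Avpr2 (circles), of Aqp2, Aqp3 and Aqp4 (squares) or of Aqp2 alone (triangles). Filled symbols mark genes whose genotypes do not overlap. The 3 subunits lie to the right of 0 and Prss8 and Fxyd4 to the left under each reference, and Nedd4l, Tsc22d3 and Hsd11b2 change side. The references themselves differed between genotypes by less than the 3 subunits, Prss8 and Fxyd4 did, so the sides of these genes could not change.

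For each called gene, the 3 genes most like it were found among 15297 genes with a mean of at least 1 CPM, by the root mean square difference of log2 CPM over the 8 libraries after centring each gene. For Scnn1g these were Trim12a (0.04), Agtpbp1 (0.07) and Stim1 (0.07). For Prss8 they were Slc39a5 (0.06), Wscd1 (0.10) and Ppa2 (0.10), and for Fxyd4 Shd (0.12), Rasgef1a (0.12) and Bdh2 (0.13). None was another of the 10 genes.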

How the data were processed

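Poly(A)-selected kidney RNA was sequenced by Illumina HiSeq per the labels. Alignment with HISAT2 2.0.4 and counting with HTSeq 0.9.1 are credited to the submitters' processing notes. The genome build, annotation and strand setting were not given in the sources used. The deposited table holds raw read counts per gene and library, made by the authors, and the authors' FPKM values, scaled by gene length and library total. The 8 columns of normalized values per library and the authors' fold changes and p-values were not used. Of 30551 gene identifiers shared with GENCODE M21, 29791 had the same position, so coordinates are those of GRCm38. Nedd4l differed there, and no position is given for it.

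Counts were read in R 4.3.3 (package data.table, version 1.17.8) and tested with edgeR 4.0.16 (filterByExpr with a minimum count of 10, TMM, robust quasi-likelihood fit on genotype, two-sided, adjusted over 18048 genes, called under 0.05). Levels are CPM, and SDs are over 4 libraries. No pair of libraries was a duplicate. The labels do not say that libraries came from separate animals, and p-values thus reflect the spread from library to library, which may be technical. Intervals of 95% are from the edgeR fit. Subunit ratios were tested by exact permutation. Y-linked reads split libraries at 1000 reads. Alternatives were RLE, upper quartile and no scaling, DESeq2 1.42.0, voom in limma 3.58.1, limma on log2(FPKM + 0.1 or 1), other filters, the Y-linked term, each kind of library alone and leaving out each library. Fits were tested on simulated data. Promoters came from RefSeq (GRCm38.p6); 4 of the 10 genes had no window.

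The 10 genes, the gene lists and the tests were chosen with earlier results of these data known. Named are the 10 genes, called genes of the pathway lists and, per list, up to 2 genes of lowest adjusted p, marker genes and the 3 nearest profiles of each called gene. Gata3, Pvalb, Furin, Fxyd6, Slc9a3, Fkbp5, Per1, Kcnj10, Kcnj1, Atp1b1, Slc12a3, Slc12a1 and Edn1 were added after their values were seen.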

Additional observations from a re-analysis of the deposited data

How the results depend on the processing

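The log2 changes of Scnn1a, Scnn1b, Scnn1g, Prss8, Nr3c2 and Fxyd4 had the same direction under all 12 alternatives and all 8 fits without 1 library. The CPM of Scnn1a, Scnn1g, Prss8 and Fxyd4 did not overlap between genotypes, so fits to fewer libraries could hardly give another direction for them. The calls varied: under the 12 alternatives, 10 called Fxyd4, 8 Scnn1g, 5 Prss8, 4 Scnn1a and 2 Scnn1b. Of the 10 genes, 3 were called higher and 1 lower with no scaling factor, 1 lower with upper quartile scaling and with limma-voom, 2 higher with DESeq2 and with every gene of any count tested, and 3 higher with the term for Y-linked reads. On log2 FPKM with limma, 0 were called higher and 1 lower with either pseudocount. Over all 18048 genes, upper quartile scaling called 617 higher and 209 lower, and limma-voom 540 and 198. On log2 FPKM these counts were 476 and 196 with the pseudocount of 0.1, and 452 and 185 with that of 1. With every gene of any count tested, 665 of 30587 were called higher and 260 lower. Within libraries with Y-linked reads, and within those without, edgeR called 0 higher and 0 lower of the 10 at n = 2 each, where 3 and 5 of them had an unadjusted p under 0.05, against 10.5% and 11.7% of all genes in these fits. Over all genes, 632 were called higher and 210 lower in the main comparison, 904 and 154 with no scaling factor, which moved the median log2 change of all genes to 0.095. DESeq2 called 1011 higher and 529 lower, the Y-linked term 317 lower, the libraries with Y-linked reads 35 higher and 23 lower, and those without 248 higher and 110 lower. Where Y-linked reads were present the log2 change was -0.077 for Nedd4l, -0.13 for Sgk1 and -0.14 for Tsc22d3, and where they were absent it was -0.049 for Hsd11b2. The cause of these differences was not tested.

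Without 1 library, 0 to 3 of the 10 genes were called higher and 0 to 2 lower (both highest without Tsc1-KO 7), and over all genes 321 to 833 were called higher and 107 to 373 lower. The log2 changes then ranged from -0.058 to 0.095 for Nedd4l, from -0.036 to 0.55 for Sgk1, from -0.023 to 0.17 for Hsd11b2, from -0.12 to 0.50 for Tsc22d3, from 0.095 (without WT 1) to 0.27 for Nr3c2, from -0.033 to 0.097 for the ratio of Scnn1g to Scnn1b and from -0.14 (without Tsc1-KO 7) to -0.0067 (without WT 4) for that of Scnn1g to Scnn1a. Relative to Aqp2, Aqp3 and Aqp4, the log2 differences were 0.71 for Scnn1a, 0.58 for Scnn1b, 0.63 for Scnn1g, -0.41 for Prss8, 0.19 for Nedd4l, 0.36 for Nr3c2, 0.21 for Hsd11b2 and -0.54 for Fxyd4. No paired analysis was made, because the sample labels name no pairing of Tsc1-KO and WT libraries.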
